A study of Mus musculus with 2 samples.

Results

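The genes described here encode the protein mesh under the red cell membrane and the anchors that tie it to the lipid bilayer. They are 8 of the 21938 protein-coding genes of the annotation, namely Sptb, Ank1, Slc4a1, Epb41, Epb42, Add2, Dmtn and Tmod1. They were chosen by name, with earlier results of these data known. For each gene, every DNase peak and footprint in the gene body or within 50 kb of any annotated transcript start was taken, a stretch called its territory here. The 8 territories span 1388 kb and held 228 merged regions of the 99252 in the genome. Distal regions belong to a gene by distance alone.

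DNase-seq maps open chromatin by the cuts that DNase I makes in nuclear DNA, and footprints are short protected stretches inside open regions. The tissue was the liver of mouse embryos aged 13.5 days on a mixed C57BL/6N,129 background, labelled as wild type that carries multiple copies of A85, which is a YAC (a yeast artificial chromosome). The sources used here do not say what sequence A85 holds. The 2 libraries, replicate 1 and replicate 2, form 1 group and come from separate tissue samples under the same donor label, with sex not collected. There is no second condition and no test between conditions, so values are given for both libraries, and the main counts beside those over all protein-coding genes or regions. Bulk tissue was measured, so fewer cells with an open site and a less open site in every cell cannot be told apart.

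As background, the red cell skeleton is a lattice of spectrin, whose beta chain is the product of Sptb. Ankyrin (Ank1) binds beta spectrin to the anion exchanger band 3 (Slc4a1), and pallidin (Epb42) steadies that link. Where spectrin ends meet short actin filaments, the Epb41 product fastens them together, adducin (Add2 is its beta chain) caps the fast-growing filament end, dematin (Dmtn) bundles actin, and tropomodulin (Tmod1) caps the slow-growing end. Loss of several of these proteins is known from inherited anaemias with spherical or elliptical red cells. The fetal liver at this age is the main site of red cell formation in the mouse, and GATA and KLF proteins are the best known activators of red cell genes.

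Sequence before open starts of 4 of the genes is shown first, because it shows where GATA motifs stand and where they are missing. Each stretch is the 120 bases just before an annotated start that lay inside a region open in both libraries, written 5′ to 3′ on the strand of the gene, on GRCm38.p6. Stretches that overlapped an annotated exon were left out, which leaves 5. Capitals mark matches on either strand to a GATA motif, which is AGATAA, or else TGATAA, or else AGATAG, or else TGATAG, and to a KLF motif, which is CCNCNCCC. A GATA motif on the other strand reads TTATCT, or else TTATCA, or else CTATCT, or else CTATCA.
Ank1, main start, chr8:23034979-23035098, plus strand: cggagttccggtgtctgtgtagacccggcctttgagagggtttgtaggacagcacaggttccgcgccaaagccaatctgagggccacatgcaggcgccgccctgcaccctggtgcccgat
Slc4a1, coding start, chr11:102365281-102365400, minus strand: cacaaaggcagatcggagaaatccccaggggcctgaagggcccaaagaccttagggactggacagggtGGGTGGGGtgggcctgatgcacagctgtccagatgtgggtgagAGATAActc
Slc4a1, intron 1 start, chr11:102363705-102363824, minus strand: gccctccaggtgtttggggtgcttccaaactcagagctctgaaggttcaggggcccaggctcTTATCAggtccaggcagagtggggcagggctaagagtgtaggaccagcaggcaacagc
Epb42, first start, chr2:121037073-121037192, minus strand: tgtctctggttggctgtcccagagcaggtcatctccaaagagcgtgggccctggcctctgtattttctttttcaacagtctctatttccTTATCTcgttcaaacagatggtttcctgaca
Add2, main start, chr6:86077937-86078056, plus strand: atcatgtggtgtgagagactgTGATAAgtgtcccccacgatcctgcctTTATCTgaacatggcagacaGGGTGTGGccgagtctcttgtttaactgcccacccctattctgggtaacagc
A GATA motif stood in 4 of these 5 stretches, and 11.3% of all protein-coding genes hold one in the 120 bases before their 5′ end. A KLF motif stood in 2 of the 5, against 39.6% of all genes. The sets are unlike, since the shares over all genes take every 5′ end, open or not and with exons or not. No enrichment is read from them. The Ank1 stretch held neither. In Slc4a1 the GATA motif before the coding start ended 4 bases before it, and in Epb42 it lay 31 to 26 bases before the start. Add2 had a pair of GATA motifs 99 to 94 and 72 to 67 bases before its start. Of the 5 GATA matches 3, those of Slc4a1 and Epb42, lay within 5 bp of a footprint found in both libraries, and the Add2 pair did not. A match is a description of the letters and not evidence that a protein was bound.

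In 16 footprints found in both libraries a GATA motif lay in the footprint or its 5 flanking bases. Of these, 8 outside the stretches above are shown next. Some of the motifs reach into the flanking bases, as in Sptb site 1, so not all of their bases were protected. Each line is the footprint with 5 bases on either side, on the strand of the gene, with GATA motifs in capitals.
Sptb, intron 1, site 1, chr12:76670771-76670787, minus strand: gcttccagaTGATAAaa
Sptb, intron 1, site 2, chr12:76672196-76672218, minus strand: aggcCTATCAgctgcttggtggg
Sptb, intron 1, site 3, chr12:76673897-76673925, minus strand: ccagttctgctgtgtctAGATAAtggaga
Sptb, intron 1, site 4, chr12:76674055-76674074, minus strand: acagaaTTATCAatcttttg
Ank1, after the main start, chr8:23054198-23054224, plus strand: acgcccTTATCAatggtgcccagagtc
Slc4a1, upstream, chr11:102368604-102368621, minus strand: cccagtgacTTATCTctc
Tmod1, intron 1, chr4:46040838-46040868, plus strand: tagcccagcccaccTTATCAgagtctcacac
Dmtn, before the main start, chr14:70627128-70627155, minus strand: acaccctggggcccgccaCTATCAgttg
Sptb had 4 such footprints, all in intron 1 and between 36.0 and 39.2 kb from its nearest start. The Ank1 site lay in a region 19.1 kb after the main start, and the Tmod1 site lay 1634 bp after the nearest start in intron 1. The Dmtn site lies 79 bp before the nearest start, within the first exon of a longer transcript.

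All 8 genes had a region with peaks of both libraries, called a shared region, within 1 kb of at least 1 annotated start, against 58.4% of all protein-coding genes. Peak values are the authors' deposited signal, whose scale the sources used here do not name, and within a library all values were whole multiples of 1 step, which gives the count behind each. Intervals are 95% Poisson intervals of that count and cover counting error only. By their highest start region the genes ran Epb41, Slc4a1, Sptb, Ank1, Dmtn, Epb42, Add2, Tmod1 in replicate 1, and Epb41, Sptb, Ank1, Slc4a1, Tmod1, Dmtn, Epb42, Add2 in replicate 2, from high to low.

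Among spectrin and its anchors, the highest Sptb start region, at chr12:76709941-76710300, had values of 9.45 (8.79 to 10.2) in replicate 1 and 6.60 (6.22 to 7.01) in replicate 2. The Ank1 region at chr8:23034981-23035200 had 9.33 (8.67 to 10.03) and 5.70 (5.34 to 6.07). These were close to each other in replicate 1, with overlapping intervals, and Sptb was above Ank1 in replicate 2, beyond the intervals. Slc4a1 had its highest start region at chr11:102363681-102363980, with 10.1 (9.39 to 10.8) and 5.05 (4.72 to 5.41), and the Epb42 region at chr2:121036701-121037420 had 5.70 (5.18 to 6.25) and 2.92 (2.66 to 3.19). That Epb42 region was under the Sptb, Ank1 and Slc4a1 regions in both libraries, beyond the intervals.

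Among the genes of the actin junctions, Epb41 stood far above the other 7. Its start region at chr4:132075241-132075480 had 28.9 (27.8 to 30.1) in replicate 1 and 20.5 (19.8 to 21.2) in replicate 2, ranks 20 and 37 among the 45831 shared regions of the genome. A start region as high was found at 0.0593% of protein-coding genes in replicate 1 and 0.128% in replicate 2. The region also lies within 1 kb of a start of Gm10300, another protein-coding gene record, so the signal cannot be given to Epb41 alone. The Dmtn region at chr14:70627001-70627260 had 6.11 (5.58 to 6.68) and 4.13 (3.83 to 4.45), the Add2 region at chr6:86077901-86078280 had 5.35 (4.86 to 5.89) and 2.76 (2.51 to 3.02), and the Tmod1 region at chr4:46039081-46039320 had 4.54 (4.09 to 5.04) and 4.21 (3.90 to 4.53). Dmtn and Tmod1 did not differ beyond their intervals in replicate 2, and neither did Add2 and Epb42, in either library. Over all genes with a shared start region the median was 5.96 in replicate 1 and 5.05 in replicate 2, and the median over these 8 genes was 7.72 and 4.63, above it in replicate 1 and below it in replicate 2. Apart from Epb41, each gene had a value reached by 16.1% to 34.6% of all protein-coding genes in replicate 1 and by 22.0% to 40.5% in replicate 2.

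The genes have many annotated starts, and fewer than all were open. Of the 70 distinct start positions, 34 had a shared region no farther than 1 kb away, or 48.6%, and the same share, 48.6%, was found over all start positions of protein-coding genes. A further 6 starts had a peak of replicate 2 alone, 1 had a peak in each library without overlap, and 29 had no peak within 1 kb. With starts less than 500 bp apart joined into groups, 19 of 43 groups were shared. Slc4a1 had a shared region at all 5 of its starts, Sptb at 2 of 3, Epb42 at 4 of 7 and Dmtn at 6 of 10. The shares were lower in Ank1 with 6 of 16, Epb41 with 6 of 16, Add2 with 3 of 8 and Tmod1 with 2 of 5. A shared region at every start was seen in 18.7% of genes with more than 1 start. Of the 13 starts with an observed to expected CpG ratio above 0.6, 10 had a shared region, and of the 57 with a lower ratio 24 did. The same counts were not made over all protein-coding genes. Nearby starts can share a region, as the 3 at the 5′ end of Ank1 do, so the starts are not separate cases.

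**Figure D1:**
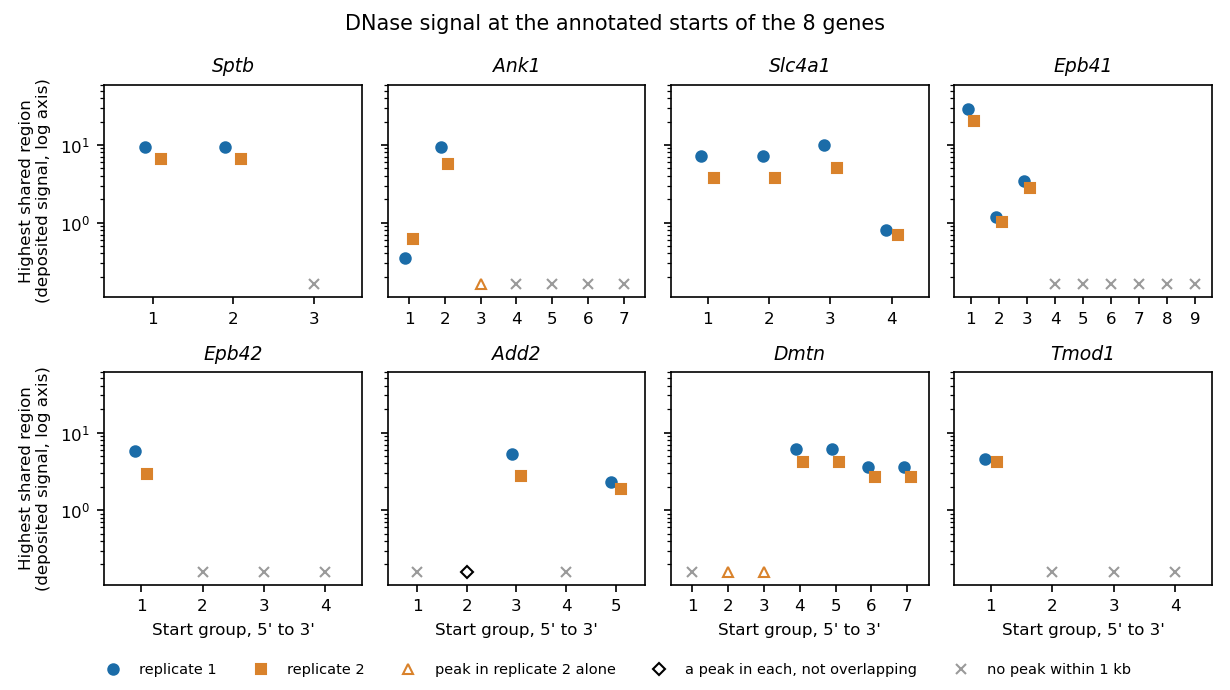
Deposited DNase signal (log axis) of the highest shared region within 1 kb of each start group, with groups numbered 5′ to 3′ within each gene. Circles are replicate 1 and squares replicate 2, symbols at the foot mark groups without a shared region, and a region within 1 kb of adjacent groups is drawn at each. Epb41 reaches 28.9 and 20.5 at its first group, while the first group of Add2 and that of Dmtn have no peak.

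In Ank1 the open start was an internal one. The group at 23035099 to 23035231, 60.3 kb after the 5′-most group, carried the region of 9.33 and 5.70, and the transcripts that begin there have up to 43 exons. The 5′-most group, in a stretch with CpG ratios of 0.977 to 1.05, had a weak shared region with values of 0.354 (0.235 to 0.512) in replicate 1 and 0.610 (0.497 to 0.741) in replicate 2. The third group, at 23058259 to 23058525, had peaks in replicate 2 alone, with values of 0.887 to 1.36, and the lowest deposited FDR within 150 bp was 2.24e-04 in replicate 2 with none listed in replicate 1. The 4 groups further downstream had no peak, among them the group at 23139030 to 23139277 whose transcripts have 3 to 5 exons. Short ankyrin transcripts of that kind are known from skeletal muscle.

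Add2 and Dmtn had no peak at their 5′-most starts and a shared region at an internal one. In Add2 the starts at 86028681 to 86028747 had no peak within 1 kb, with a lowest FDR of 0.0343 in replicate 2 and none listed in replicate 1. The group 49.4 kb downstream, at 86078057 to 86078084, carried the highest region, and its transcripts have up to 16 exons. The 3′-most start, at 86085862, had a region at chr6:86085601-86085800 with 2.32 and 1.88. The start at 86052248 had a weak peak in each library, 0.608 in replicate 1 and 0.483 in replicate 2, that did not overlap. In Dmtn the pair of starts at 70636048 and 70635978 had no peak, the next starts at 70630154 and 70628999 had peaks in replicate 2 alone, of 0.996 and 1.02, and the group with the highest region, at 70627308 to 70627054, lay 8.74 kb after the first. A second open region of Dmtn at chr14:70618081-70618340, with 3.63 and 2.66, lay within 1 kb of the starts of 3 shorter transcripts.

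Epb41 had open starts in its 5′ part alone. Its first 3 groups had shared regions, with 28.9 and 20.5 at the first, 1.16 and 1.03 at the second (949 bp from that start), and 3.42 and 2.81 at the third, which begins 26.2 kb downstream in a stretch of high CpG ratio. The 6 groups from 67.9 kb on had none. In Epb42 the first group was open and the other 3 groups, all of non-coding transcripts, had no peak, and in Tmod1 the first group was open and the other 3, also non-coding, had none.

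Sptb shows how the libraries can differ at a start. The start of its 36-exon transcript at 76710547 was covered by a peak of replicate 2 alone, with a value of 2.58 (2.34 to 2.83), while the shared region of 9.45 and 6.60 began 247 bp downstream over the start at 76710023. The lowest deposited FDR within 150 bp of 76710547 was 3.88e-13 in replicate 1 and 3.93e-16 in replicate 2, so both libraries had signal there although only the list of replicate 2 has a peak. In Slc4a1 the highest region was not at the coding start. It lay at 102363704, the start of a non-coding transcript in intron 1 of the coding one, with its centre 1479 bp after the coding start. The coding start region at chr11:102364921-102365340 had 7.25 (6.67 to 7.87) and 3.73 (3.44 to 4.04), lower in both libraries beyond the intervals.

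Over the whole territories there were 105 shared regions among 228, or 46.1% (95% Wilson interval 39.7 to 52.5), against 46.2% of all regions of the genome, so sharing between the libraries was at the background. Replicate 1 alone had 55 regions, or 24.1%, against 28.4% over the genome. Replicate 2 alone had 68, or 29.8%, against 25.4%, and Slc4a1 and Epb41 held 16 each of the 68. No interval was taken for these shares, so no difference from the genome is read from them. The regions of replicate 1 alone had a median value of 0.721, against 1.89 for the shared regions of these genes in that library, and those of replicate 2 alone had 0.770, against 1.58. Of the 105, 23 lay within 1 kb of a start of the gene itself, 16 within 1 kb of a start of another protein-coding gene, and 66 away from all such starts. By the annotation of the gene, 25 overlapped an exon, 36 lay in an intron, 22 upstream and 22 downstream.

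**Figure D2:**
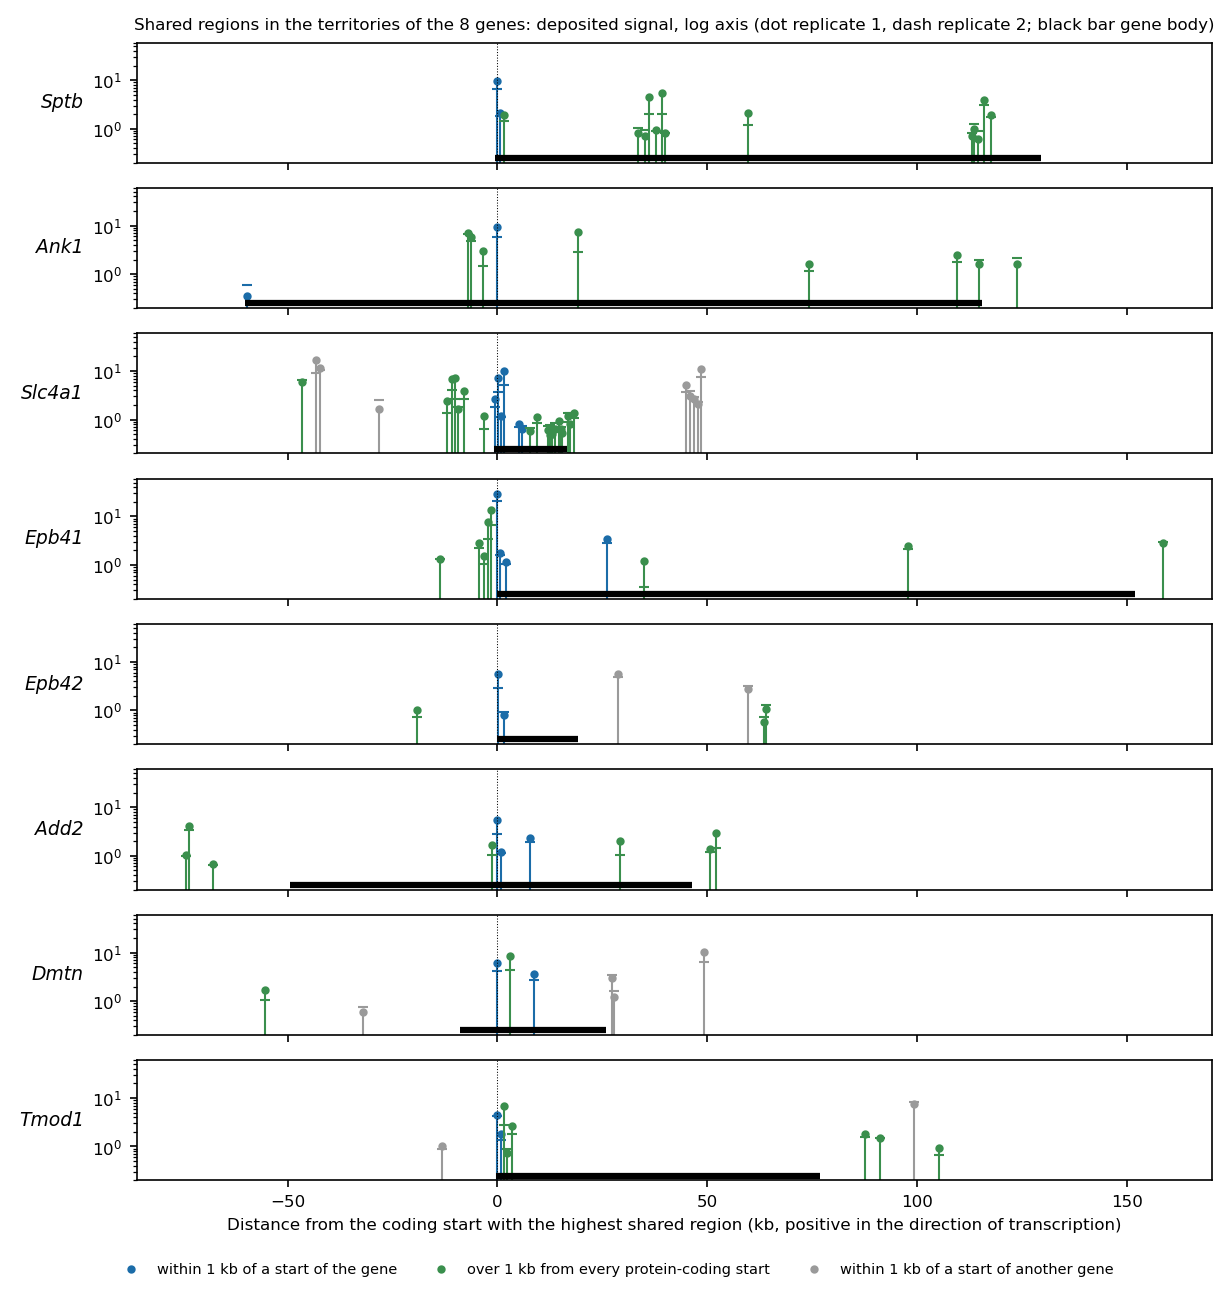
Shared regions of each gene by distance from the protein-coding start with the highest shared region (kb, positive in the direction of transcription), with the deposited signal on a log axis. Dots are replicate 1, dashes replicate 2 and the black bar is the gene body. Slc4a1 has regions along its whole body, and Sptb has a cluster near 36.0 to 39.3 kb in intron 1.

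Every one of the 8 genes had at least 1 shared region more than 1 kb from all of its own starts, against 78.7% of protein-coding genes. Slc4a1 had 27, Sptb 13, Ank1, Epb41 and Tmod1 8 each, Add2 7, Dmtn 6 and Epb42 5, next to a median of 3 and an upper quartile of 7 over all genes. As many as Slc4a1 were found at 0.1595% of genes, and as many as Sptb at 5.71%. Territory length enters such counts, so densities are given too. Slc4a1 had 31.2 shared regions per 100 kb, a density reached by 0.0866% of genes, while the other 7 had 3.77 to 6.74 per 100 kb, against a median of 3.51 and an upper quartile of 6.89. With regions near the starts of other genes left out, Slc4a1 had 19, Sptb 13 and Dmtn 2.

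**Figure D3:**
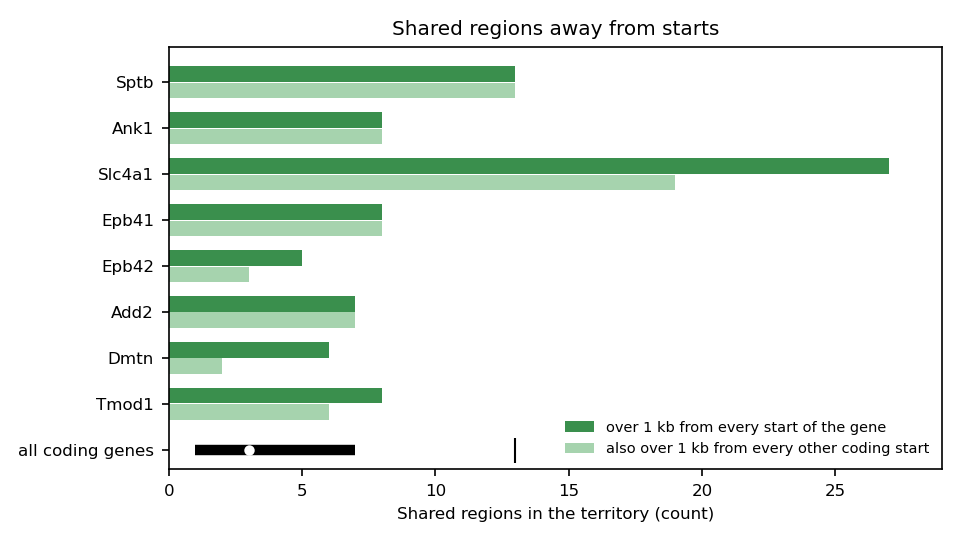
Shared regions in each territory more than 1 kb from every start of the gene (dark) and also more than 1 kb from every other protein-coding start (light). For all protein-coding genes the bar spans the quartiles of the dark measure, 1 to 7, the white dot is the median of 3 and the tick is the 95th percentile, 13, which Sptb equals and Slc4a1 exceeds with 27.

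In Slc4a1, the anion exchanger gene, open chromatin ran through the gene itself. Shared regions covered 33.0% of its 17.4 kb body, and as large a share was found at 0.743% of protein-coding genes, while the other 7 genes had 1.18% to 3.87%, next to a median of 0.511% and a mean of 2.23%. Most of these regions were low. The 10 in the body and more than 1 kb from every start had values of 0.468 to 1.19 in replicate 1 and 0.634 to 1.38 in replicate 2, and 6 of them overlapped an exon. A group of higher regions stood upstream, between 7.86 and 12.1 kb before the coding start. The highest of that group were chr11:102375261-102375600, with 7.24 (6.66 to 7.86) in replicate 1 and 2.63 (2.38 to 2.88) in replicate 2, and chr11:102375701-102376140, with 6.71 (6.15 to 7.30) and 4.02 (3.72 to 4.34). Farther out, 46.6 kb before the coding start, chr11:102411821-102412000 had 6.02 (5.50 to 6.59) and 6.46 (6.08 to 6.86), by mean rank the highest Slc4a1 region away from all starts. The outer part of the territory takes in the starts of Ubtf, an activator of ribosomal RNA genes, Rundc3a, and Slc25a39, a mitochondrial carrier gene, and these hold 8 of the 33 shared regions. The highest of the territory by mean rank, chr11:102408461-102408780 with 16.6 and 8.98 (8.53 to 9.44), lies at the start of Slc25a39. In replicate 2 another region at Slc25a39 starts, chr11:102407441-102407640, was higher with 10.4 (9.89 to 10.9), beyond the intervals.

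Sptb and Ank1 had strong intronic regions. In intron 1 of Sptb, chr12:76670621-76670960 had 5.53 (5.02 to 6.07) in replicate 1 and 2.05 (1.83 to 2.28) in replicate 2, and chr12:76673761-76674240 had 4.52 (4.06 to 5.01) and 2.00 (1.79 to 2.23). Both hold GATA footprints shown above. By the mean rank of both libraries the highest Sptb region away from starts was another one, chr12:76593861-76594140 in intron 32, with 3.94 and 3.04. In Ank1 a pair of regions stood in the intron before the open start, chr8:23028001-23028200 with 7.19 (6.61 to 7.81) and 6.73 (6.34 to 7.14), and chr8:23028641-23028860 with 5.73 (5.22 to 6.29) and 4.82 (4.49 to 5.17), 7.01 and 6.34 kb before it. Another Ank1 region, chr8:23054041-23054320, had 7.49 (6.90 to 8.12) and 2.84 (2.59 to 3.11), and it holds the GATA footprint shown above. This region was above the region at 7.01 kb in replicate 1, with overlapping intervals, and below it in replicate 2.

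Epb41, Dmtn and Tmod1 had their highest region away from all starts within 3 kb of the open start. Epb41 had chr4:132076801-132077020, 1.61 kb upstream and partly in an exon of Gm10300, with 13.3 (12.5 to 14.1) in replicate 1 and 6.56 (6.17 to 6.96) in replicate 2, and a footprint there held a GATA motif. Another at 2.37 kb upstream had 7.72 and 3.43. Dmtn had chr14:70623961-70624180 in intron 2, with 8.68 (8.04 to 9.36) and 4.48 (4.16 to 4.81), above its start region in both libraries, with overlapping intervals in replicate 2. Tmod1 likewise had chr4:46040661-46041100 in intron 1, with 6.78 (6.22 to 7.38) and 2.80 (2.55 to 3.07), above its start region in replicate 1 and below it in replicate 2. Add2 had its highest one far upstream at chr6:86004381-86004560, with 4.16 and 3.34, and in Epb42 the highest shared one, at chr2:120973041-120973300, had 1.09 and 1.32.

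Among the 10 highest shared regions of all territories by mean rank, 5 belonged to the starts of neighbouring genes. The starts of Slc25a39 held 2 of them, with 16.6 and 8.98 and with 11.4 and 10.4. The start of Ubtf held 1 with 10.8 and 7.42, that of Nudt18 in the Dmtn territory 1 with 10.2 and 6.31, and the starts of Ncbp1 and Tstd2 in the Tmod1 territory 1 with 7.70 and 8.17. In the Epb42 territory the highest region away from its own starts, with 5.59 and 4.97, likewise lay at the start of a neighbour, Ccndbp1. The other 5 were the start regions of Epb41, Sptb, Slc4a1 and Ank1 and the region upstream of Epb41.

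The libraries were compared by the log2 ratio of replicate 1 to replicate 2, with 0 placed at the genome's median over shared regions. The median over the 105 regions was 0.02, with 55 above 0 and 50 below, and a range of -0.97 to 1.58. The central 90% of the genome's shared regions lay between -0.87 and 1.04, and 9 of the 105 fell outside. Given as log2 with 95% intervals from counting error, the largest ratios were 1.58 (1.12 to 2.05) at chr4:132040341-132040580 in intron 1 of Epb41, 1.28 (1.10 to 1.46) at the upstream Slc4a1 region chr11:102375261-102375600, and 1.25 (1.04 to 1.45) at the Sptb intron 1 region chr12:76670621-76670960. The smallest were -0.97 (-1.57 to -0.37) at the 5′-most starts of Ank1, -0.96 (-1.36 to -0.56) just 3′ of Slc4a1 at chr11:102347701-102348020, and -0.93 (-1.42 to -0.43) at chr11:102349639-102349925 near the 3′ end of Slc4a1.

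The ratio was higher where a GATA motif stood. Among the 66 regions away from all starts, the 24 with a GATA motif in the central 200 bp had a median ratio of 0.48 and 20 of them were above 0, while the 42 without had a median of -0.16 and 16 were above 0. The rest of the genome had the same order, with medians of 0.42 for 9298 distal regions with the motif and -0.09 for 16483 without. At the starts of the genes the medians were 0.35 for 8 regions with the motif and 0.02 for 15 without, against 0.14 and -0.09 at other starts. This compares 1 library with 1 library. Start regions of 6 erythroid markers had medians of 9.38 in replicate 1 and 4.84 in replicate 2. The 2 hepatoblast markers with a shared region differed widely, Afp with 1.40 and 1.42 and Foxa3 with 12.0 and 7.93. With so few genes, no contrast between the cell types is drawn from these values. The part of cell composition in the ratio was not tested.

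**Figure D4:**
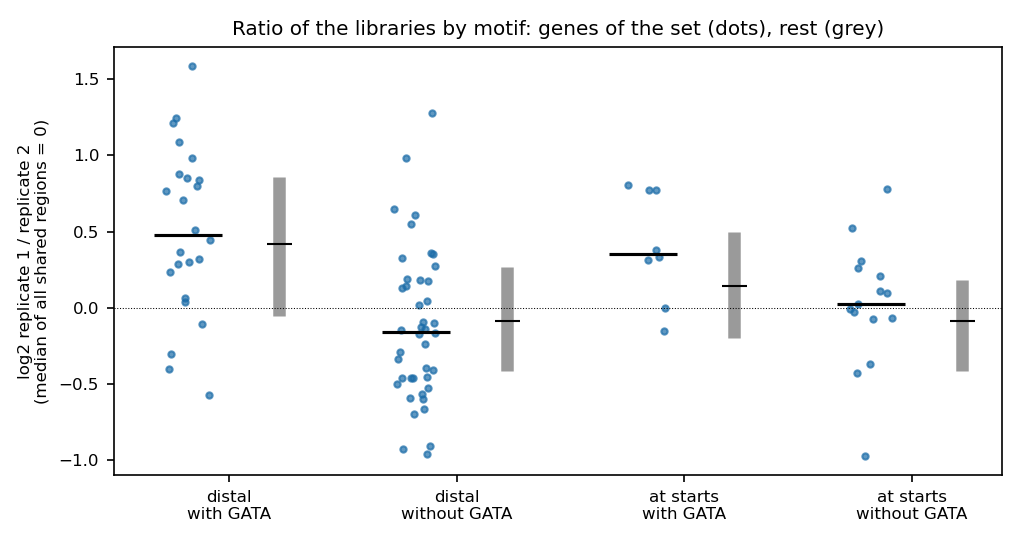
Log2 ratio of replicate 1 to replicate 2 (genome median set to 0) for shared regions with and without a GATA motif in 200 bp, away from starts and at starts. Dots are regions of the 8 genes with their median as a line, and grey bars are the quartiles of the rest of the genome with the median. The median is 0.48 for the 24 distal regions with the motif and -0.16 for the 42 without.

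A GATA motif stood in the central 200 bp of 33 of the 105 shared regions, or 31.4% (Wilson interval 23.3 to 40.8), against 26.8% of all shared regions. At the starts of these genes 8 of 23 regions held it, 34.8% (18.8 to 55.1), against 14.8% at the starts of the rest, and away from starts 24 of 66 did, 36.4% (25.8 to 48.4), against 36.1%. The share at starts was thus above that of other starts and the share away from starts was not. Slc4a1 weighs heavily in the share at starts. Its regions at chr11:102363681-102363980, chr11:102364281-102364580, chr11:102364921-102365340 and chr11:102365741-102366200 all held the motif. Sptb, Epb41, Add2 and Dmtn held the other start regions with it, and Ank1, Epb42 and Tmod1 held none in that window. The highest Epb42 start region is wide, and it holds GATA motifs outside the central 200 bp, among them the one printed above. The interval treats regions of the same gene as separate. The motif of the insulator protein CTCF was found in 7 of the 66 distal regions, 10.6% (5.23 to 20.3), against 21.1% of the rest. A GATA core that follows the letters CTG, part of an E-box, at a gap of 8 to 10 bp, a spacing known from GATA and TAL proteins bound together, stood in 14 of the 105, 13.3% (8.11 to 21.1), against 9.19%. It overlaps the GATA motif, and KLF matches can overlap SP1 matches (GGGCGG).

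Footprints of both libraries numbered 169 among 814 in the territories, or 20.8% (18.1 to 23.7), against 26.6% over the genome. Replicate 1 alone accounted for 175 and replicate 2 alone for 470, and replicate 2 is the library with more footprints, 230992 against 151079 in replicate 1. Slc4a1 had 48 found in both, Sptb 22, Epb41 21, Tmod1 20, Dmtn 16, Add2 15, Ank1 14 and Epb42 13, against a median of 8 over all genes. Of the 169, 160 lay in shared regions.

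The GATA motif was found in 16 of the 169, or 9.47% (5.91 to 14.8), against 2.87% of the other footprints found in both libraries. The share was above the rest both within 1 kb of protein-coding starts, with 6 of 78 or 7.69% (3.57 to 15.8) against 1.33%, and farther away, with 10 of 82 or 12.2% (6.76 to 21.01) against 5.56%. Sptb had 4 of the 16, Slc4a1, Epb42 and Dmtn 3 each, Ank1, Epb41 and Tmod1 1 each, and Add2 had 0. Of the Dmtn sites, 1 is at the start of Nudt18. The intervals treat footprints of the same gene or region as separate, although the 4 of Sptb all lie in its intron 1. E-box motifs (CAGCTG or CAGATG) stood in 13 of the 169, 7.69% (4.55 to 12.7), against 3.22%, and KLF motifs in 40, 23.7% (17.9 to 30.6), against 19.1%. The liver motifs of C/EBP (TTGCNNAA) and FOXA (TGTTTAC or TGTTTGC) were in 0 of 169, which allows up to 2.22% each. In the rest they were in 0.432% and 0.312%. The HNF1 motif (GTTAAT) stood in 1 of 169, 0.592% (0.105 to 3.28), against 0.176%. Over the 105 shared regions, C/EBP motifs stood in 3.81%, against 6.53% of the rest. FOXA motifs stood in 4.76% against 5.36%, and HNF1 motifs in 3.81% against 3.11%.

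**Figure D5:**
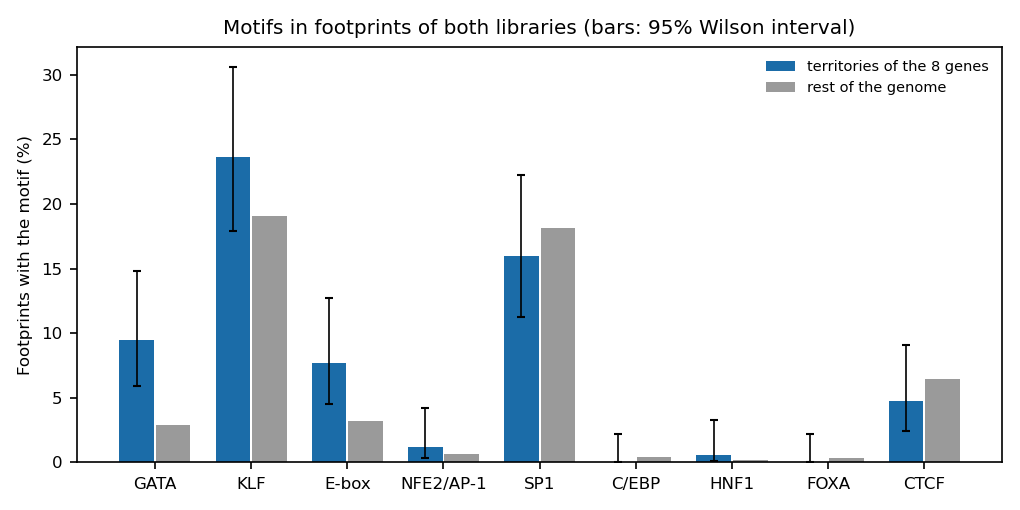
Share of footprints found in both libraries that hold each motif within the footprint and 5 bp on either side, for the territories of the 8 genes (blue, 169 footprints, with 95% Wilson intervals) and the rest of the genome (grey, 77477). The GATA share is 9.47% against 2.87%, and the C/EBP and FOXA shares are 0 of 169.

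The other genes of the red cell skeleton and its membrane anchors, a list of 18, were open at their starts as well. Each of the 18 had a shared region at a start, against 58.4% of all protein-coding genes. Of their 119 start positions 83 did, 69.7%, against 48.6% over all protein-coding genes. The 18 include the adducin genes Add1 with 14.7 in replicate 1 and 10.8 in replicate 2 and Add3 with 25.7 and 18.4. They also include the Rh-associated glycoprotein gene Rhag with 3.72 and 1.27. The median number of shared regions away from a gene's own starts was 6 over the list. Of 26 relatives of these genes that work mainly in other tissues, 17 had a shared start region, 65.4%, near the 58.4% of all genes. Of their 258 start positions 71 did, 27.5%, under the 48.6% over all genes. Among the 26, the beta spectrin relative Sptbn1 had 1.85 and 1.67 and the ankyrin relative Ank3 had 1.86 and 1.87. Both were under Sptb and Ank1 in both libraries. Sptbn4, another beta spectrin gene, had 19.6 and 11.8, above Sptb in both. The tissue transglutaminase gene Tgm2, with 10.5 and 11.4, was above its relative Epb42 in both libraries.

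Markers of the cells in the liver stood as follows. All 6 erythroid markers had a shared start region. Of 6 hepatoblast markers 2 did, Afp and Foxa3, and Alb, Ttr, Apoa1 and Hnf4a did not. Of the macrophage markers 0 of 6 did, of the endothelial 1 of 6 (Kdr), of the neuronal 4 of 6 and of the skeletal muscle markers 1 of 6. The share over all protein-coding genes was 58.4%, and the neuronal 66.7% was near it. The neuronal values were low, with a median of 1.25 in replicate 1 and 1.5 in replicate 2. The part of these cells in the values of the 8 genes was not tested. The peak lists held 76130 peaks in replicate 1 and 73852 in replicate 2, with a median of 69 and 126 counts per peak, so values of replicate 2 carry less counting error.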

How the data were processed

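The deposited peak lists give each library's peaks on mm10 with a signal value, which the authors made from that library's alignment, per notes that were deposited beside them. The authors also deposited FDR values (q-values) per stretch of bases, all under 0.05, and footprint lists that carry 0.01 in every line, read as their threshold. The names and versions of the aligner and callers were not given in the sources used here. Of the 2 peak lists per library, the longer was used. Every signal value was a whole multiple of a step, 0.0127 in replicate 1 and 0.00604 in replicate 2, within 0.05 of a step. Reads are not independent molecules, and intervals cover counting error only.

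Peaks of both libraries that overlapped by at least 1 bp were merged, and the highest peak gave the value of a region. Starts and genes came from GENCODE M21, where 21938 protein-coding gene records lie on the chromosomes used, and motifs were searched in 200 bp of GRCm38.p6 around the centre of the highest peak of replicate 1, or in a footprint with 5 bp on either side. The FDR at a start is the lowest within 150 bp. The CpG ratio was taken from 250 bp before to 50 bp after a start. Intron numbers follow the protein-coding transcript with most exons. The code used Python 3.11.15, pandas 2.3.3, numpy 2.4.6, scipy 1.17.1, pysam 0.24.0, samtools 1.23.1 and matplotlib 3.10.9, and was tested on simulated peaks and motifs.

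The genes and gene lists were chosen with earlier results of these data known. Named are all 8 genes with their highest regions at and away from starts, the regions at each start, the 10 highest regions and the 3 largest and 3 smallest ratios, and examples of the lists. The other regions named, the cluster and upstream regions and the printed sequences, were chosen after their values were seen. Sptbn5 of the list of relatives matched no protein-coding gene record. With 1 group of 2 libraries no test was run. Some genes of the lists are counted but not reported singly here.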

Additional observations from a re-analysis of the deposited data

How the results depend on the processing

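Of 74 recomputed values, 63 stayed within 1.5 times the reported count or within the interval of the reported value, and 11 did not. That was a counting interval for signal values, a Wilson interval for the motif share and an interval of the median for the ratio. Many of the 63 could not move. The start values under the shorter list came from the same peaks, and the mean of a region with 1 peak equals its highest. All 8 genes had a shared start region under each alternative that used both libraries. With 1 library alone, or with 2.5 kb in place of 1 kb, the count of 8 is fixed by construction. The 34 open starts ranged from 26, with a reciprocal overlap of at least 50%, to 41, with replicate 2 alone, and were 24 of 47 when starts of protein-coding transcripts alone were used. With the peaks of 1 library alone, the 105 shared regions became 169 to 184 regions, the 82 more than 1 kb from the gene's own starts became 140 to 142, the 169 footprints became 354 to 648, and the share of regions with a GATA motif was 22.8% without replicate 1 and 37.3% without replicate 2. These counts use 1 list in place of 2, so they hold regions that the other library lacks. A territory of 20 kb and the gene body left 111 of the 169 footprints, being the smaller stretch. A window of 400 bp gave a GATA share of 49.5%, being the longer window. Without scaling, the median log2 ratio of replicate 1 to replicate 2 was 0.21 in place of 0.02. The mean of the peaks in the Epb42 start region of replicate 2 was 2.43, against 2.92 for the highest, since that region joins several peaks. The peak list does not enter the footprint count, so the shorter list gave no second value there. With it, the start values were the same, and 77 shared regions were left. No paired analysis was possible because the labels name 1 group. Depth limits the low regions most, and a peak absent from a list is not shown to be closed.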
